A study of Mus musculus with 6 samples.

Results

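The genes described here are 40 components of the machinery that copies DNA, looked up by symbol in an expression table of the developing mouse retina. All 40 symbols were found among the 30042 genes of the table, each once, and the list was drawn up by function: helicase, licensing, polymerase, clamp loader, nucleotide supply and chromatin assembly. The retinas came from wild-type mice of the strain given as 129/Sv; C57/BL6J, at 1 embryonic age, day 16.5 (E16.5), and after birth on days 1, 3, 7, 14 and 28 (P1, P3, P7, P14 and P28). Each of the 6 ages is 1 library of messenger RNA from whole dissected retina, and the sources used here do not say how many animals were pooled for it. The series title concerns mice lacking deiodinases, the enzymes that activate and inactivate thyroid hormone, but every library used here is wild type.

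A cell copies its genome once per division. Before S phase the licensing factors Cdc6 and Cdt1 load the ring-shaped MCM helicase onto origins, and geminin (Gmnn) blocks a repeat of that step. The kinase Cdc7 and the GINS complex then turn the helicase on, the alpha-primase complex lays down primers, polymerases epsilon and delta extend them on the sliding clamp PCNA, and CAF-1 puts nucleosomes back behind the fork. In the mouse retina, progenitors divide before birth and for several days after it, and divisions end first in the centre and last at the edge. The neurons and Muller glia that they produce do not normally divide again.

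Expression values were RPKM, reads divided by the length of the gene model and by the size of the library. The depth, estimated from the steps between the lowest values, was between 12772499 reads (P1) and 28855320 reads (P14), so that 1 read in a gene of 2 kb was worth between 0.0173 RPKM (P14) and 0.0391 RPKM (P1). Markers of photoreceptors, progenitors, Muller glia and ganglion cells were above 0 in every library. The library titles have 2 forms, with E16.5, P1 and P28 in one form and P3, P7 and P14 in the other. The lens crystallin gene Cryaa followed the same division, with 23.7 RPKM (E16.5), 13.0 (P1) and 0 (P3), then 0.036 (P7), 0.351 (P14) and 20.7 (P28). Over the 5 lens markers the summed level was 29.1 RPKM (E16.5), 15.5 (P1) and 26.2 (P28), and between 0.799 and 1.11 RPKM in the other 3 libraries. Erythroid markers summed to 131 RPKM at E16.5 and to between 2.29 and 13.7 RPKM at the other ages. The part that these differences between libraries play in the results was not tested. RefSeq gene models (GRCm38.p6) place 10 of the 40 members in overlap with another protein-coding gene, judged by the start and end of each gene. Reads of a stretch that a pair shares cannot be told apart here, because the sources used here do not state the counting strand. How much of each gene is shared was not examined. Some pairs were listed at levels far apart, with Pole2 at 0.0150 times Klhdc1 (P14) and Pold2 at 33.3 times Aebp1 (P3). At P14, 7 of the 10 members were listed at or below the level of their neighbour.

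Replication genes were high around birth and low from P7 on. A single library stands for each age, which allows no test between ages, so the test was a straight line over the 6 ages in order. It was fitted with limma on log2(RPKM + 1) to the 15272 genes that reached 1 RPKM at some age, and a gene was called when its p, adjusted by the Benjamini-Hochberg method over all of them, was under 0.05. The p-values reflect the spread of libraries of different ages around that line, not the spread between replicate retinas. Of the 40 members, 37 fell with age, where 29.9% of all tested genes fell. None of the 40 rose (0 also at an unadjusted p under 0.05 with limma), where 15.2% of all tested genes rose. The 3 members that were not called are Cdc7, Gins2 and Rpa1. The median slope was -0.47 log2 units per age step over the members and -0.06 over all tested genes.

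**Figure D1:**
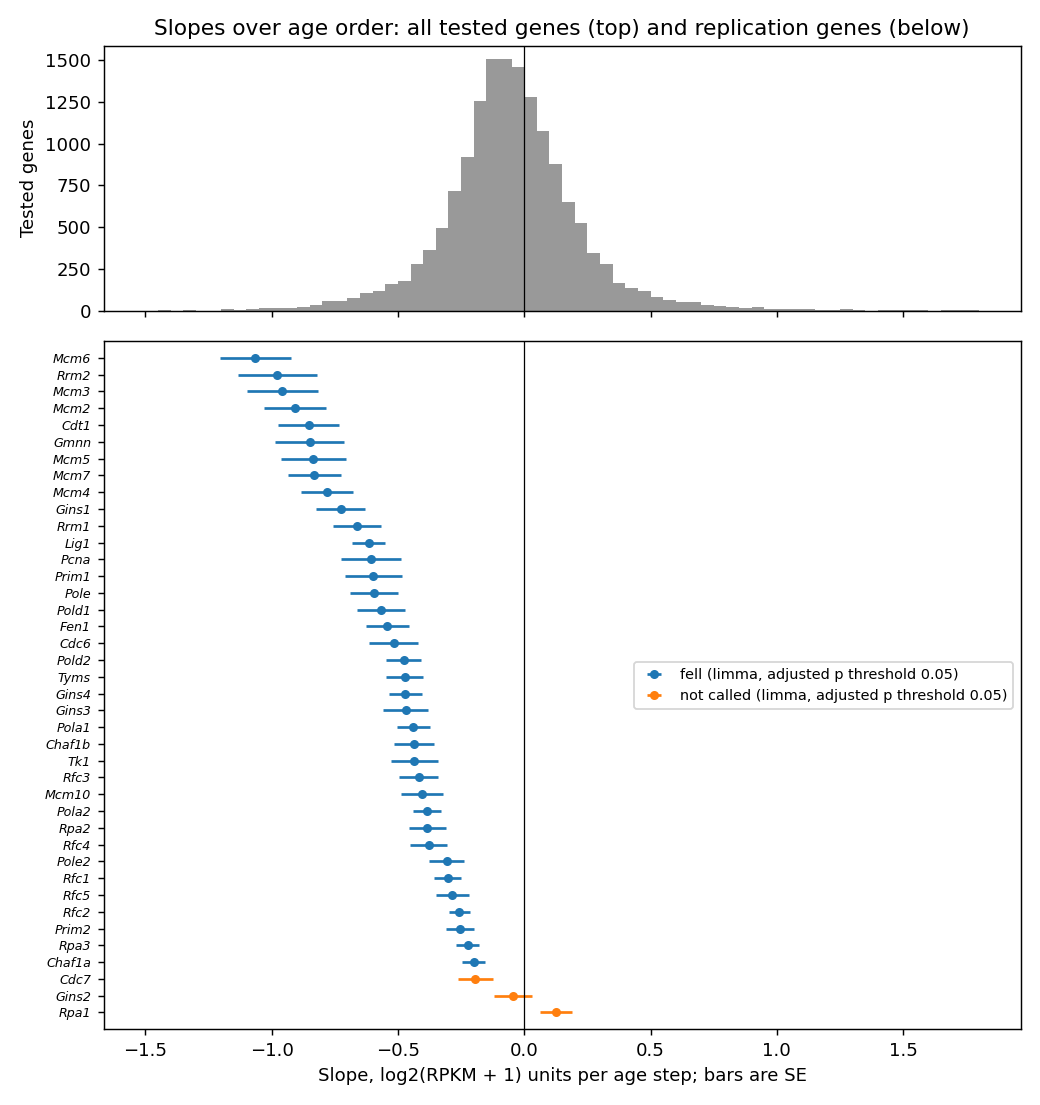
Slope over age order of each replication gene (lower panel, points with SE bars, on the log2(RPKM + 1) scale per age step) below a histogram of the slopes of all 15272 tested genes. The members run from -1.07 (Mcm6) to 0.13 (Rpa1), and the 3 that were not called lie at the bottom.

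The balance of all genes depended on how libraries were scaled, whereas the members' balance did so only at its margin. Of all calls 66.28% were falls with RPKM as deposited, 52.2% after median-of-ratios rescaling and 44.77% after rescaling to a common total of RPKM without the 50 highest genes. Rescaling shifted a whole library by between -0.27 and 0.19 log2 units. Median-of-ratios rescaling left no member called as rising. With the common total Rpa1 was called as rising (slope 0.20, adjusted p = 0.0354 with limma). Using P3, P7 and P14 alone, the 3 libraries with little lens RNA, 28 of 40 members fell, where 14% of the 14488 genes tested there fell, and 0 rose, where 8.77% did.

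Each member's level was also written as a percent of its own highest age. The median member stood at 97.1% (E16.5), 100% (P1) and 54.2% (P3), then at 16.0% (P7), 10.1% (P14) and 12.6% (P28). Over all tested genes the same medians were 79.5%, 73.2%, 70.2%, 67.9%, 63.6% and 59.6%. At P14, 14 members were under 5% of their highest value, where 2.8% of tested genes were. The lowest value lay at P14 for 30 members (18.5% of tested genes), at P28 for 8 and at P7 for 2. Because the libraries hold RNA of the whole retina, fewer cells that replicate their DNA and less of these transcripts per cell cannot be told apart.

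**Figure D2:**
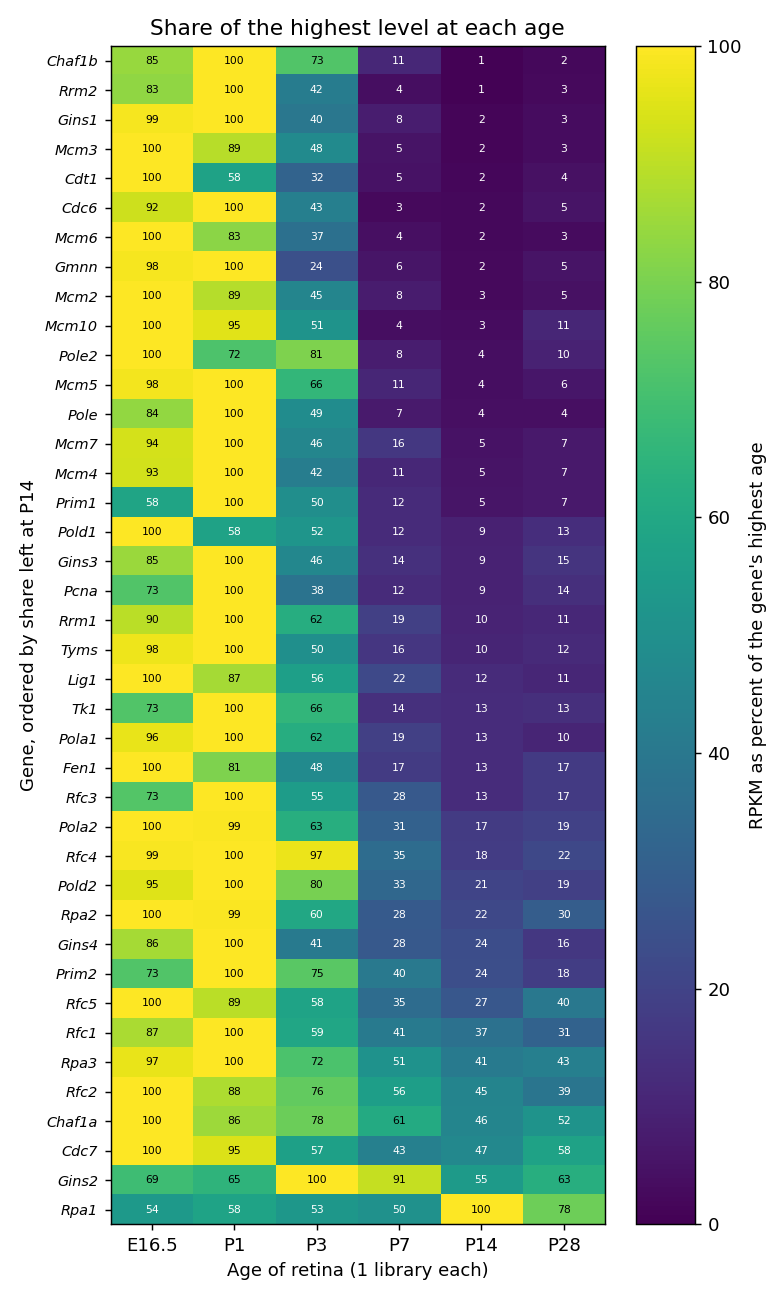
Level of each replication gene (rows) at each age (columns) as a percent of that gene's own highest RPKM value, 1 library per age, with genes ordered by what was left at P14. The top rows, Chaf1b and Rrm2, kept 0.726% and 0.729% at P14, and the bottom row, Rpa1, had its highest value there.

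The largest step down lay between P3 and P7 for most members. The ages are unevenly spaced, with P1 and P3 closer together than P3 and P7, so the size of a step is not a rate per day. The median step of the members was -0.66 log2 units to P3 and -1.15 to P7. A difference between neighbouring ages was counted, without a test, when it reached 1 unit on the log2(RPKM + 1) scale and the higher value was at least 1 RPKM. At P7, 26 of 40 members were lower than at P3 by that measure, where 3.54% of tested genes were. At P3, 8 members were lower than at P1 (3.52% of tested genes), namely Mcm4, Mcm6, Mcm7, Gins1, Gins4, Gmnn, Pcna and Rrm2, and with the common total 5 were. At P14, Mcm7 alone was lower than at P7 (2.4% of tested genes), but 9 members were so with a pseudocount of 0.1 RPKM. At P28 no member was lower than at P14 (0.53% of tested genes) or higher (1.19%), and at P1 none was lower than at E16.5 (2.23%) or higher (1.05%). Across the whole span, 34 members were lower at P14 than at P1, where 17.4% of tested genes were. The largest single drop ended at P7 in 32 members (14.2% of tested genes), at P3 in 5, at P14 in 2 and at P28 in 1. Rfc2 and Lig1 were the 2 members that had a lower value at every step, where 5.95% of tested genes did. A curved fit gave no call, with limma's adjusted p under 0.05 for 0% of tested genes, and with an unadjusted p under 0.05 for 18.7% of tested genes and for 1 member, Cdc7 (unadjusted p = 0.0443).

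**Figure D3:**
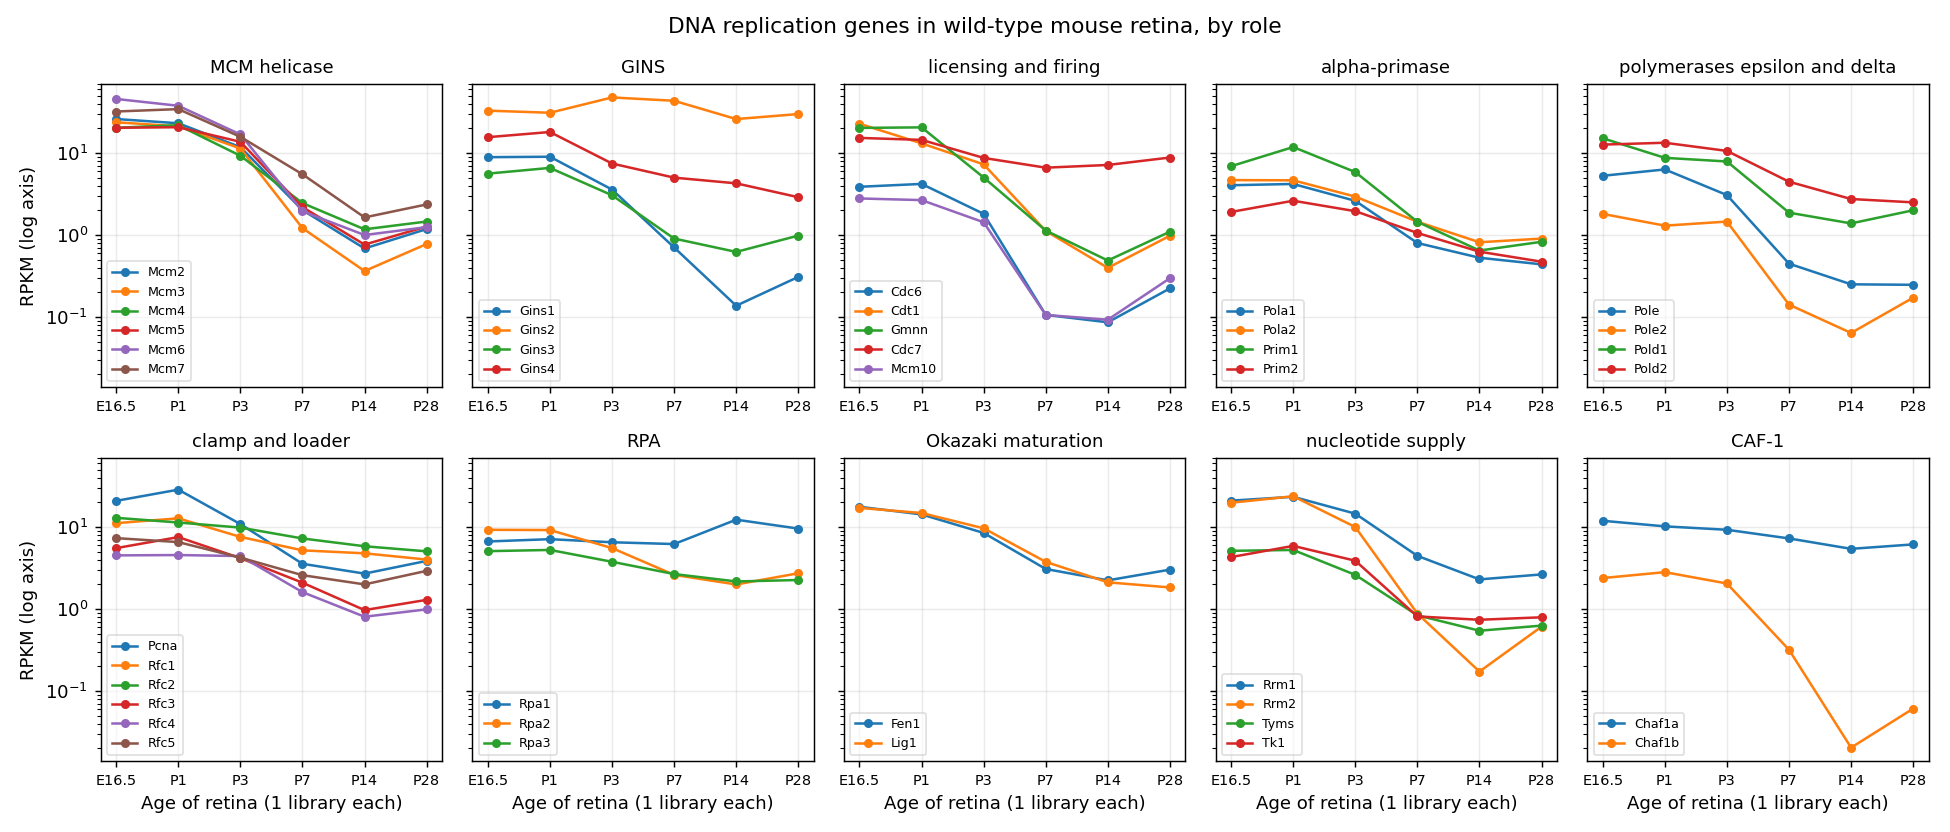
RPKM (log axis) of the 40 replication genes at each of the 6 ages, 1 library each, in 10 panels by role. The 6 MCM lines run together and drop between P3 and P7, while Gins2, Cdc7, Rpa1 and Chaf1a have the flattest lines.

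The 6 genes of the MCM helicase, the ring that unwinds DNA at the fork, all fell. Their median slope of -0.87 was the steepest of the 10 roles on the log2(RPKM + 1) scale, which understates changes of low genes. As a share of the highest value, the median MCM gene kept 9.18% at P7 and 3.17% at P14. The median licensing and firing gene kept less, 4.93% and 2.38%, though its median slope was -0.52. Mcm6 was the most abundant of the 6 per length before P7, with 45.6 RPKM (E16.5), 37.6 (P1) and 16.8 (P3), then 1.95 (P7), 1.00 (P14) and 1.25 (P28). Its 3 later libraries were at most at 1.95 RPKM and its 3 earlier ones at least at 16.8, and its slope was -1.07 ± 0.14 log2 units per step (SE, adjusted p = 0.00203). Mcm3, a structural subunit of the same ring, was at 23.7, 21.1, 11.3, 1.21, 0.364 and 0.777 RPKM at the same ages, and was the lowest subunit from P7 on. Its P7 value was 0.107 times its P3 value (95% counting interval 0.0854 to 0.131), and it had a slope of -0.96 ± 0.14 (adjusted p = 0.00245). Such intervals come from estimated reads and cover counting error only.

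Mcm2 was at 26.0 RPKM (E16.5), 23.0 (P1) and 11.8 (P3), then 2.01 (P7), 0.686 (P14) and 1.18 (P28). Mcm5 was at 20.3, 20.6, 13.7, 2.19, 0.764 and 1.27 RPKM at these ages, and kept more of its level at P3 (66.4% of its highest value) than the other 5 subunits, which kept between 36.9% and 47.9%. Mcm4 was at 20.3, 21.8, 9.25, 2.45, 1.17 and 1.46 RPKM. Mcm7 was at 32.1, 34.3, 15.8, 5.50, 1.64 and 2.36 RPKM, and was the highest subunit from P7 on, with 16.0% of its own maximum left at P7 against 4.27% for Mcm6. Ap4m1, a protein-coding gene that overlaps Mcm7, was listed at 5.64 RPKM (P7), 2.89 (P14) and 2.00 (P28), so that Mcm7 was 0.975, 0.568 and 1.18 times as high as this neighbour at the same ages, and its rank there is uncertain. The slopes of Mcm2, Mcm4, Mcm5 and Mcm7 were -0.91, -0.78, -0.83 and -0.83, with adjusted p between 0.00191 and 0.00289. The subunits, which form the ring in equal numbers, lay within a factor of 2.25 (E16.5), 1.82 (P1) and 1.82 (P3) of each other. Later the factor was 4.53 (P7), 4.51 (P14) and 3.04 (P28), with Mcm7 the highest, so these later factors are uncertain as well. The next highest subunit at these ages, Mcm4, was at 2.45, 1.17 and 1.46 RPKM, and the lowest, Mcm3, at 1.21, 0.364 and 0.777 RPKM. Mcm7 also hosts the microRNA genes Mir25, Mir93 and Mir106b in its RefSeq gene model.

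Promoters of replication genes are known for sites of E2F, the family of factors that turns on S phase genes. RefSeq promoter windows (build GRCm38.p6, from 250 bases before to 50 bases after the start, 300 in all) were found for 32 of the 40 members. The letters TTTCCCGC, TTTGGCGC and TTTCGCGC were searched on both strands, counting matches that overlap. At least 1 of these 3 was present in 12 of 32 members (37.5%), in 2.12% of 27025 genes with a window, in 5.75% of the tested genes that fell, and in 1 of 17 genes of the mitosis list (5.88%). The 12 are Mcm3, Mcm5, Mcm6, Mcm7, Gins3, Cdc6, Cdt1, Pola1, Pole2, Pold1, Rfc3 and Lig1. The CCAAT box, where NF-Y binds, was present in 59.4% of members, 41.1% of all genes and 88.2% of the mitosis list. The letters TTTGAA, of the kind known as CHR in mitotic genes, were present in 15.6% of members, 20.2% of all genes and 70.6% of the mitosis list, and the related TTCGAA in 6.25%, 1.8% and 17.6%. The 250 bases before the start are shown for 3 helicase genes with matches and for Rpa1, the member with the highest slope, which had none. Sequences run 5′ to 3′ on the strand of the gene, and capitals mark the E2F letters on either strand. They lie at chr8:75109259-75109508 on the plus strand (Mcm5), chr1:128359706-128359955 on the minus strand (Mcm6), chr5:138171884-138172133 on the minus strand (Mcm7) and chr11:75348384-75348633 on the minus strand (Rpa1).
Mcm5: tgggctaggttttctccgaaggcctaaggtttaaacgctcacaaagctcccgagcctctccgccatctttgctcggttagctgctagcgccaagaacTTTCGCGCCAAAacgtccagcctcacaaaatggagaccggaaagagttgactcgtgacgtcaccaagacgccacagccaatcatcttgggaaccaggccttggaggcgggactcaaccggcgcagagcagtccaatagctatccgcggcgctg
Mcm6: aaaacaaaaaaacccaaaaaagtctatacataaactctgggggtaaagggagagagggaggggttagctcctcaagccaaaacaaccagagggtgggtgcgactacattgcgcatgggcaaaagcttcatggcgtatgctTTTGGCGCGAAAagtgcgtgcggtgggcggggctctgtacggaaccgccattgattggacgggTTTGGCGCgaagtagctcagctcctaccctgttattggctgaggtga
Mcm7: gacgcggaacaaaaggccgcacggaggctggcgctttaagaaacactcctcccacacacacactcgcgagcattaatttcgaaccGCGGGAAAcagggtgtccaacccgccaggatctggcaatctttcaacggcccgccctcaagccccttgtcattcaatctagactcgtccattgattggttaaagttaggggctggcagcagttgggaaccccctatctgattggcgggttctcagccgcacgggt
Rpa1: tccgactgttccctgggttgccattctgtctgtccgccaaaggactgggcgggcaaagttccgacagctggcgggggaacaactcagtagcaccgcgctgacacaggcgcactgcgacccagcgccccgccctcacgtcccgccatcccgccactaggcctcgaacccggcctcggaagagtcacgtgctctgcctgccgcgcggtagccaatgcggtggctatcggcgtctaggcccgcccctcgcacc
In Mcm5 a TTTCGCGC and a TTTGGCGC match on opposite strands share bases, so that 1 run of capitals holds both. The same pair overlaps in Mcm6, where another TTTGGCGC stands 40 bases before the start. Mcm7 shows its TTTCCCGC match on the other strand, 158 bases before the start, and its remaining match lies at or after the start, outside the stretch printed. A match is a description of the letters and not a bound site.

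GINS is the complex of 4 small proteins that joins MCM and Cdc45 into the active helicase. Gins1 was at 8.89 RPKM (E16.5), 9.00 (P1) and 3.58 (P3), then 0.705 (P7), 0.137 (P14) and 0.308 (P28), and fell (slope -0.73 ± 0.10, adjusted p = 0.00212). Its lowest library, P14, held about 4 reads, and its P14 value was 0.0153 times that at P1 (95% counting interval 0.00380 to 0.0372). Gins3 was at 5.60, 6.58, 3.05, 0.906, 0.622 and 0.984 RPKM and Gins4 at 15.6, 18.0, 7.44, 5.01, 4.27 and 2.89 RPKM, and both fell, with slopes of -0.47. Gins4 kept 23.7% of its highest value at P14 and Gins3 9.45%, against 1.53% for Gins1. Gins2 stood apart from the other 3, with 32.8 RPKM (E16.5), 30.9 (P1) and 47.6 (P3), then 43.3 (P7), 25.9 (P14) and 29.8 (P28). It was highest at P3 and was not called (slope -0.04 ± 0.08, adjusted p = 0.660), with a slope above 0 under both rescalings (0.01 and 0.04). Gse1, the gene that overlaps Gins2 in RefSeq, was listed at 33.7, 28.8, 53.7, 47.0, 27.2 and 29.6 RPKM, and the ratio of Gins2 to Gse1 stayed between 0.885 and 1.07. The level given for Gins2 is therefore uncertain, because reads of a stretch shared by the pair cannot be told apart.

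Among the 5 licensing and firing genes, 4 fell and the kinase gene Cdc7 was not called. Cdt1, which brings MCM to the origin, was at 22.7 RPKM (E16.5), 13.1 (P1) and 7.27 (P3), then 1.12 (P7), 0.398 (P14) and 0.979 (P28) (slope -0.85 ± 0.12, adjusted p = 0.00230). Its inhibitor Gmnn was at 20.2, 20.5, 5.03, 1.13, 0.489 and 1.10 RPKM (slope -0.85 ± 0.14, adjusted p = 0.00324). The loader and its inhibitor thus parted at the first steps: Cdt1 was already lower at P1 than at E16.5, with a ratio of 0.576 (95% counting interval 0.513 to 0.646), while Gmnn had a ratio of 1.02 (0.868 to 1.20) and its largest drop at P3. Cdc6, the ATPase that loads MCM together with the origin complex, was at 3.87, 4.20, 1.81, 0.106, 0.0863 and 0.223 RPKM (slope -0.52 ± 0.10, adjusted p = 0.00512). Mcm10, a firing factor that is not part of the MCM ring, was at 2.79, 2.67, 1.43, 0.106, 0.0928 and 0.297 RPKM (slope -0.40, adjusted p = 0.00739). Cdc6 and Mcm10 had about 12 reads each at P7, and their P7 values were 0.0587 (0.0299 to 0.105) and 0.0741 (0.0372 to 0.132) times those at P3.

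Cdc7 kept much of its level. It was at 15.3 RPKM (E16.5), 14.5 (P1) and 8.71 (P3), then 6.62 (P7), 7.15 (P14) and 8.80 (P28), with a slope of -0.19 ± 0.07 that narrowly missed the threshold (adjusted p = 0.0502). It was called as falling without the P28 library (slope -0.30, adjusted p = 0.0192), with the stricter filter of 5 RPKM (0.0423) and when the title form entered the fit (0.0305). In the other 11 of 14 alternatives it was not called (adjusted p up to 0.442), and its slope was -0.11 with the common total. Dbf4, the subunit that Cdc7 needs to be active, was at 7.31, 10.4, 4.17, 0.675, 0.238 and 0.308 RPKM and fell (slope -0.70, adjusted p = 0.00319). Cdc7 was 1.39 times as high as Dbf4 per length at P1, 9.81 times at P7 and 30.04 times at P14.

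The 4 genes of the alpha-primase complex, which makes the RNA-DNA primer, were less abundant and all fell. Prim1, the catalytic primase subunit, was at 6.91 RPKM (E16.5), 11.8 (P1) and 5.85 (P3), then 1.45 (P7), 0.647 (P14) and 0.827 (P28) (slope -0.60, adjusted p = 0.00535). Its P1 value was 1.71 times that at E16.5, the largest such ratio of the 40 members (95% counting interval 1.48 to 1.98). Pola1, the DNA polymerase subunit, was at 4.05, 4.19, 2.61, 0.799, 0.528 and 0.439 RPKM, and Pola2, its regulatory partner, at 4.67, 4.64, 2.94, 1.45, 0.816 and 0.905 RPKM. Prim2, the large primase subunit, was at 1.91, 2.62, 1.95, 1.06, 0.626 and 0.473 RPKM and fell the least of the 4 (slope -0.25, adjusted p = 0.0101). The slopes of Pola1 and Pola2 were -0.44 and -0.38. All 4 came within a factor of 1.54 of each other at P14, where the factor had been 4.51 at P1.

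Polymerase epsilon, the main leading-strand enzyme, had low values after P3. Pole, its catalytic subunit, was at 5.28 RPKM (E16.5), 6.30 (P1) and 3.07 (P3), then 0.448 (P7), 0.251 (P14) and 0.247 (P28) (slope -0.59 ± 0.09, adjusted p = 0.00315). Pole2, its second subunit, was at 1.81, 1.30, 1.46, 0.142, 0.0640 and 0.172 RPKM and also fell (slope -0.31, adjusted p = 0.0102), with about 3 reads at P14. For polymerase delta, the lagging-strand enzyme, the catalytic subunit Pold1 was at 15.1, 8.73, 7.88, 1.87, 1.39 and 2.00 RPKM (slope -0.57, adjusted p = 0.00365). Like Cdt1, Pold1 was lower at P1 than at E16.5, with a ratio of 0.577 (95% counting interval 0.510 to 0.653). The accessory subunit Pold2 was at 12.7, 13.3, 10.6, 4.47, 2.75 and 2.50 RPKM (slope -0.48, adjusted p = 0.00240). All 4 were lower at P7 than at P3 by 1 log2 unit or more. The remaining 4 subunits of both enzymes, which are not among the 40, varied. Pole3 was at 4.24 RPKM at P14 and 36.5 RPKM at P1 and fell (slope -0.67, adjusted p = 0.00159). Pold3 was at 5.69 RPKM at P14 and 12.7 RPKM at P1 and fell as well, though not with the common total (adjusted p = 0.0555) or with P3, P7 and P14 alone (0.0540). Pole4 was at 5.12 RPKM at P14 and 7.07 RPKM at P1, and Pold4 at 2.15 RPKM at P14 and 2.76 RPKM at P1, and neither was called (adjusted p = 0.204 and 0.467).

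The sliding clamp and its loader divided by subunit. Pcna, the ring that holds polymerases on DNA, was at 20.9 RPKM (E16.5), 28.6 (P1) and 10.9 (P3), then 3.56 (P7), 2.71 (P14) and 3.86 (P28) (slope -0.61 ± 0.12, adjusted p = 0.00605). It peaked at P1, at 1.37 times its E16.5 value (95% counting interval 1.21 to 1.55). Of the loader subunits, Rfc1, the large one that opens the clamp, was at 11.2, 12.8, 7.58, 5.20, 4.78 and 4.01 RPKM, and Rfc2 at 12.9, 11.4, 9.84, 7.26, 5.83 and 5.06 RPKM. Both fell (slopes -0.30 and -0.26, adjusted p = 0.00427 and 0.00311), but in small steps, and kept 37.5% and 45.0% of their highest value at P14. Rfc3 was at 5.53, 7.54, 4.18, 2.10, 0.971 and 1.29 RPKM and Rfc4 at 4.51, 4.56, 4.43, 1.61, 0.807 and 0.991 RPKM, with 12.9% and 17.7% left at P14. Rfc4 was level over the first 3 ages and then lower, and it overlaps the translation factor gene Eif4a2. Rfc5 was at 7.32, 6.55, 4.24, 2.59, 2.00 and 2.92 RPKM (slope -0.28, adjusted p = 0.0103), and its call was lost without E16.5 (adjusted p = 0.0546). The 5 loader subunits spanned a factor of 7.23 at P14 and 2.87 at E16.5.

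RPA, the trimer that coats single-stranded DNA in replication and in repair, held the 1 member that was highest late. Rpa1, the large DNA-binding subunit, was at 6.67 RPKM (E16.5), 7.11 (P1) and 6.52 (P3), then 6.20 (P7), 12.3 (P14) and 9.57 (P28). The P14 and P28 libraries were above the 4 earlier ones, which lay within 6.20 to 7.11 RPKM, and the P14 value was 1.98 times that at P7 (95% counting interval 1.82 to 2.16). Its slope of 0.13 ± 0.06 was not called (adjusted p = 0.139). Smyd4, which overlaps Rpa1, was listed at between 1.46 and 2.05 RPKM and at 1.96 RPKM at P14. Rpa2 was at 9.25, 9.19, 5.54, 2.61, 1.99 and 2.73 RPKM, and Rpa3 at 5.08, 5.26, 3.77, 2.67, 2.17 and 2.26 RPKM. Both fell, with slopes of -0.38 and -0.22 (adjusted p = 0.00548 and 0.00738). The trimer's subunits lay within a factor of 6.17 of each other at P14 and 1.82 at E16.5.

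**Figure D4:**
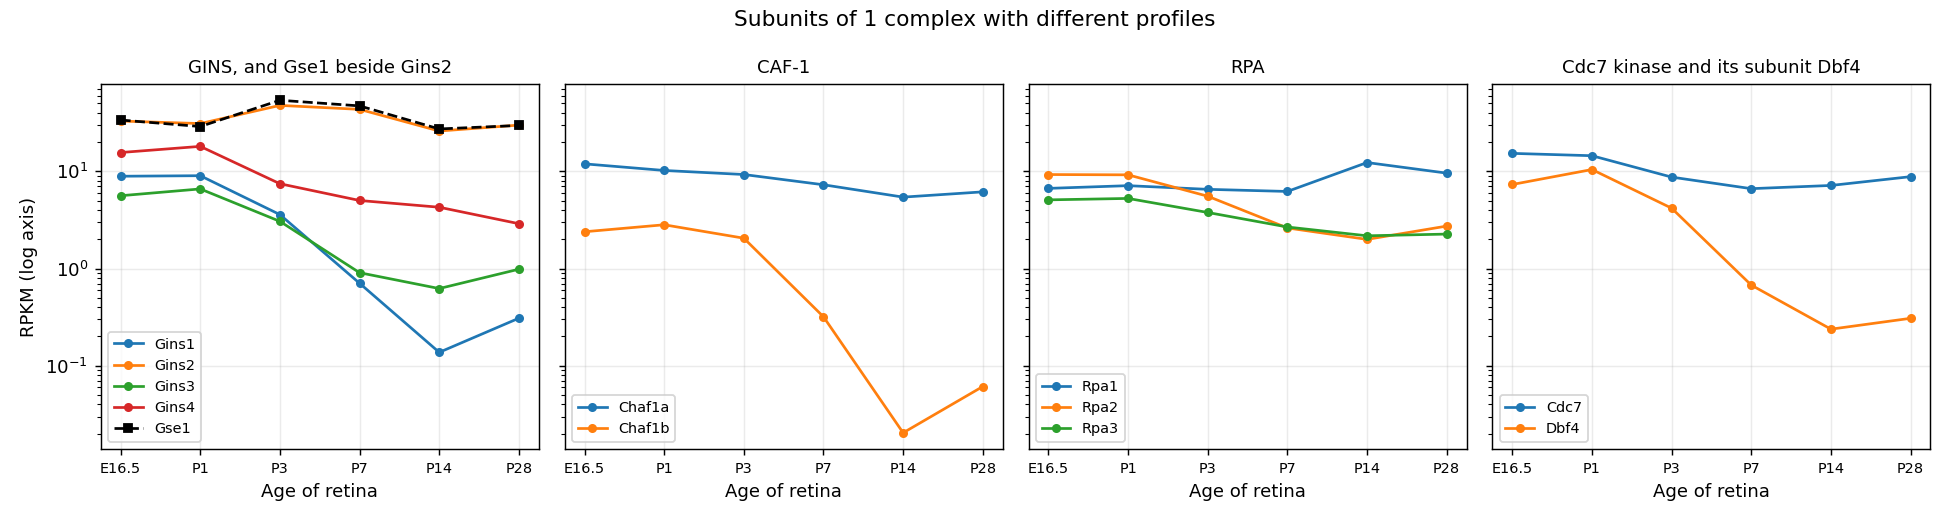
RPKM (log axis) at each age of subunits of 4 complexes, 1 library per age, with Gse1, the gene that overlaps Gins2, as a dashed line. Chaf1a, Cdc7 and Rpa1 stay above 5 RPKM at every age while Chaf1b and Dbf4 end under 1 RPKM, and Gins2 and Gse1 run together.

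Fen1 and Lig1 finish Okazaki fragments by trimming the flap and sealing the nick. Fen1 was at 17.7 RPKM (E16.5), 14.3 (P1) and 8.48 (P3), then 3.08 (P7), 2.24 (P14) and 3.02 (P28) (slope -0.54, adjusted p = 0.00298). Lig1 was at 17.1, 14.8, 9.65, 3.76, 2.12 and 1.83 RPKM, and had the lowest adjusted p of all members (slope -0.62 ± 0.06, adjusted p = 0.00149). Both were lower at P7 than at P3 by 1 log2 unit or more, and at P14 they kept 12.7% and 12.4% of their E16.5 level, which was their highest. Tmem258, which overlaps Fen1, was listed at 4.30 RPKM (P7), 3.21 (P14) and 3.00 (P28), so that Fen1 was 0.716, 0.697 and 1.01 times as high. Lig1 was 1.86, 1.18 and 0.926 times as high as its neighbour Zswim9 at these ages. The late levels of Fen1 and Lig1 are therefore uncertain.

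Nucleotide supply genes fell in 4 of 4 cases, with the widest range in ribonucleotide reductase, the enzyme that makes deoxynucleotides. Rrm2, its S phase subunit, was at 19.8 RPKM (E16.5), 23.7 (P1) and 9.999 (P3), then 0.883 (P7), 0.173 (P14) and 0.610 (P28) (slope -0.98 ± 0.16, adjusted p = 0.00324). Its P14 value, from about 11 reads, was 0.00729 times that at P1 (95% counting interval 0.00364 to 0.0132). The large subunit Rrm1 was at 21.0, 23.4, 14.6, 4.45, 2.30 and 2.64 RPKM (slope -0.66, adjusted p = 0.00240). Rrm2b, the subunit used outside S phase and not among the 40, ranged from 1.32 RPKM (E16.5) to 1.70 RPKM (P14) and was not called (slope 0.03). Rrm2 was thus far above Rrm2b around birth and below it from P7 on, when Rrm2b was at 1.59 RPKM. Tyms, which makes thymidylate, was at 5.13, 5.25, 2.61, 0.840, 0.545 and 0.628 RPKM (slope -0.47, adjusted p = 0.00286), and a pseudogene of it, Tyms-ps, is listed in the table and may share its reads. Tk1, the thymidine kinase of cycling cells, was at 4.30, 5.89, 3.88, 0.813, 0.741 and 0.794 RPKM (slope -0.43, adjusted p = 0.00834). Afmid, which overlaps Tk1, was listed at 0.967 RPKM (P7), 1.05 (P14) and 0.747 (P28). Tk1 was 0.841, 0.703 and 1.06 times as high as Afmid at these ages, so its late level is uncertain.

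The 2 CAF-1 genes, whose proteins place histones on new DNA, differed widely in profile. Chaf1a, the large subunit, was at 11.9 RPKM (E16.5), 10.2 (P1) and 9.26 (P3), then 7.27 (P7), 5.42 (P14) and 6.14 (P28). Its fall was shallow (slope -0.20 ± 0.05, adjusted p = 0.0102) and was not called with rescaling to a common total (slope -0.12, adjusted p = 0.0791) or with P3, P7 and P14 alone (0.0601). Ubxn6, which overlaps Chaf1a, was listed at between 8.84 and 11.9 RPKM, and the ratio of Chaf1a to Ubxn6 was 0.588 at P14 and 1.15 at P1. The late level of Chaf1a is therefore uncertain. Chaf1b, the middle subunit, was at 2.39, 2.82, 2.05, 0.319, 0.0204 and 0.0612 RPKM (slope -0.44 ± 0.08, adjusted p = 0.00447). The P14 and P28 values stand for about 2 reads each, and the P14 value was 0.00726 times that at P1 (95% counting interval 0.00104 to 0.0322). Chaf1a as listed was 22.8 times as high as Chaf1b per length at P7 and 3.62 times at P1.

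From the embryo to the day after birth the members did not move together. At P1, 24 of 40 were above their E16.5 value, where 49.3% of tested genes were. The highest value lay at P1 for 23 members (20.5% of tested genes) and at E16.5 for 15 (28.5%). The counting interval of the P1 to E16.5 ratio lay above 1 for 8 members and below 1 for 9, where it lay above 1 for 24.6% and below 1 for 28.2% of the 12472 tested genes with a reference transcript, so that neither count stood above that of all genes. Higher at P1 were Prim1, Pcna, Tk1 (ratio 1.37, interval 1.10 to 1.71), Rfc3 (1.36, 1.13 to 1.63), Rrm2 (1.20, 1.07 to 1.34), Pole (1.19, 1.06 to 1.35), Rfc1 (1.14, 1.03 to 1.27) and Rrm1 (1.11, 1.04 to 1.19). Lower were Cdt1, Pold1, Fen1 (ratio 0.808, interval 0.711 to 0.914), Mcm6 (0.826, 0.780 to 0.874), Mcm2 (0.888, 0.817 to 0.964), Mcm3 (0.892, 0.817 to 0.973), Lig1, Rfc2 and Chaf1a. With 1 library at each age, these intervals leave out the spread between animals and preparations.

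At P28, 31 of 40 members were above their P14 value, where 40.3% of tested genes were. This held for 6 of 6 MCM genes, 5 of 5 licensing genes, 4 of 4 nucleotide genes and 2 of 2 CAF-1 genes. It held for 3 of 4 GINS genes, 4 of 6 clamp and loader genes, 2 of 3 RPA genes, 2 of 4 alpha-primase genes, 2 of 4 polymerase epsilon and delta genes and 1 of 2 Okazaki genes. Rrm2 was at 0.610 RPKM at P28 and 0.173 RPKM at P14, a ratio of 3.53 (95% counting interval 1.53 to 8.19) from about 17 and 11 reads. Mcm3 had a ratio of 2.13 (1.29 to 3.48), Cdt1 of 2.46 (1.47 to 4.14) and Mcm2 of 1.72 (1.18 to 2.50). The interval lay above 1 for 16 members, where it did for 14.1% of the 12472 tested genes with a reference transcript. It lay below 1 for 4 members, Gins4, Rfc1, Rfc2 and Rpa1, where it did for 30.6% of these genes. The levels stayed low: the median member was at 0.894 RPKM at P14 and 1.26 RPKM at P28, where the medians over all tested genes were 3.95 and 3.77 RPKM. As a share of the E16.5 value, the excess over P14 had a median of 2.07% over the members and 2.22% over the mitosis list. The same median was 1.04% over the other replication genes and 11.1% over the housekeeping genes. It was -3.49% over all tested genes and -1.91% over the genes called falling. Lens markers moved with the members, and 4 of 5 were higher at P28. Their summed level was 26.2 RPKM at P28 and 1.11 RPKM at P14. Of the housekeeping genes, 10 of 12 were higher at P28. The summed progenitor markers were nearly equal, at 119.67 RPKM at P28 and 120.01 RPKM at P14. The part of lens tissue or of the library in these differences was not tested.

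**Figure D5:**
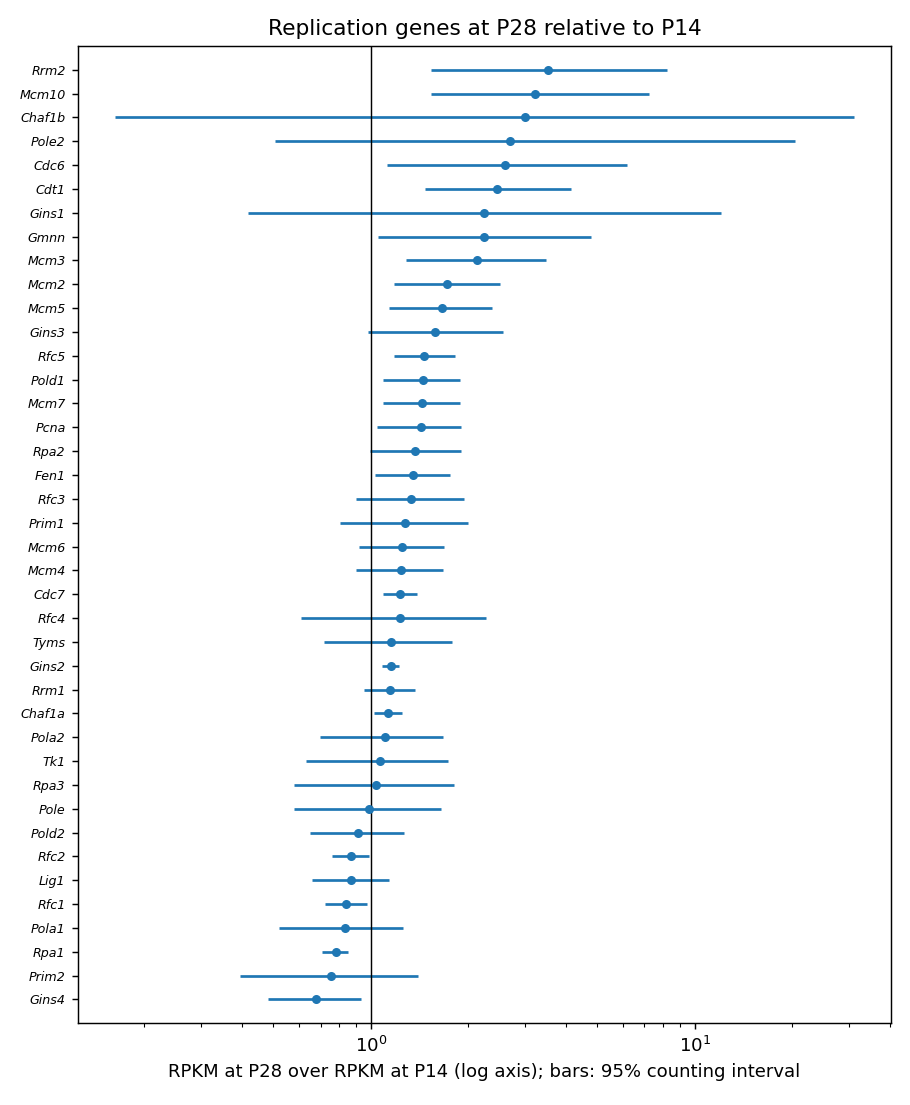
Ratio of the P28 to the P14 RPKM value of each replication gene (points, log axis) with 95% counting intervals from estimated reads (bars), which leave out the spread between animals. The interval lies above 1 for 16 genes, led by Rrm2 at 3.53, and below 1 for 4.

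Other genes of the same process gave a similar picture with more exceptions. Of 40 further replication genes 29 fell, 0 rose and 11 were not called (0 rose also at an unadjusted p under 0.05 with limma). The steepest were Uhrf1, which recognises newly copied DNA for its methylation (slope -1.18, adjusted p = 0.00318), Dbf4, and the checkpoint scaffold Topbp1 (-0.70, adjusted p = 0.00291). Uhrf1 was at 43.0 RPKM (E16.5), 36.1 (P1) and 13.1 (P3), then 0.712 (P7), 0.0733 (P14) and 0.841 (P28). The highest slopes belonged to Orc4, an origin recognition subunit (0.11), Supt16h, a subunit of the histone chaperone FACT (0.06), and Chtf18, of an alternative clamp loader (-0.04). Among 21 further nucleotide genes 14 fell and Impdh1 rose, an enzyme of guanine nucleotide synthesis known for a retinal role in photoreceptors. It was at 10.6 RPKM (E16.5), 11.9 (P1) and 32.6 (P3), then 65.4 (P7), 101 (P14) and 102 (P28) (slope 0.73 ± 0.09, adjusted p = 0.00165). Its paralog Impdh2 was at 39.7, 33.8, 13.7, 8.41, 6.39 and 7.85 RPKM and fell (slope -0.52, adjusted p = 0.00354). Not called were Rrm2b, Tk2, Samhd1, Ctps2, Nme1 and Gart. Shmt1, a one-carbon enzyme that feeds thymidylate synthesis, also fell (slope -0.46).

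Among 13 E2F and pocket protein genes, the regulators of S phase transcription, 9 fell and 1 rose. E2f1, an activator, was at 25.3 RPKM (E16.5), 24.0 (P1) and 23.4 (P3), then 3.63 (P7), 0.548 (P14) and 1.13 (P28) (slope -0.93 ± 0.15, adjusted p = 0.00345). At P3 E2f1 held 92.7% of its highest value, and the replication member Rfc4 97.2%. The medians at P3 were 54.2% over the replication genes and 66.1% over the E2F and pocket protein genes. E2f8, a repressor, and Rbl1, the pocket protein p107, had the next steepest falls of this list, with slopes of -0.78 and -0.61. Rbl2, the pocket protein p130 of resting cells, rose (slope 0.19, adjusted p = 0.0165), with 3.35 RPKM (E16.5), 5.36 (P1) and 5.88 (P3), then 7.22 (P7), 7.42 (P14) and 7.75 (P28). Its call was lost without E16.5 (slope 0.12, adjusted p = 0.0894), without P14 (0.19, 0.0520) and with P3, P7 and P14 alone (0.15, 0.334). E2f3, E2f4 and Rb1 were not called.

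The 40 replication genes had a median slope of -0.47 and the 20 mitosis genes, all of which fell, one of -0.89. The median share of the highest value was 16.0% at P7, 10.1% at P14 and 12.6% at P28 over the replication genes, and 4.45%, 0.937% and 2.45% over the mitosis genes. The steepest were the proliferation antigen Mki67 (slope -1.41), the topoisomerase Top2a (-1.16) and the kinetochore gene Cenpf (-1.11). Of 25 repair and checkpoint genes 18 fell and 1 rose, namely Polb, the polymerase of base excision repair (slope 0.23, adjusted p = 0.0153). Polb was at 6.93 RPKM (E16.5), 9.12 (P1) and 13.2 (P3), then 16.7 (P7), 16.5 (P14) and 15.6 (P28). Its call was lost without E16.5 (adjusted p = 0.0964), without P14 (0.0503), with P3, P7 and P14 alone (0.396) and with age in log2 days (0.0587). Chek1, Exo1 and Brca1 had the steepest falls of that list, with slopes of -0.81, -0.63 and -0.57. The repair genes Xrcc6, Rev3l, Polk, Ercc1, Lig3 and Atr were not called. Of 12 housekeeping genes 6 fell and Hprt rose (slope 0.23), with Actb (-0.57), Rpl13a (-0.53) and Ywhaz (-0.31) the steepest falls. The call was lost for Hprt without P28 (adjusted p = 0.0767) and with P3, P7 and P14 alone (0.0968), for Rpl13a without E16.5 (0.0606) and for Ywhaz with P3, P7 and P14 alone (0.698). Gapdh, Polr2a, Pgk1 and Sdha were among those not called.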

How the data were processed

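The authors deposited 1 table of RPKM values, with 1 column per age per the file headers, for wild-type retina at 6 ages. The submitters' processing notes name bcl2fastq 2.17.1.14 and the build mm9. The aligner, counter, annotation and strand were not given in the sources used here. Members were matched by symbol, and 3 genes of the comparison lists by gene ID. The members and lists were chosen with earlier results of these data known. From the RPKM values, log2(RPKM + 1) was computed, which understates changes of low genes. Genes with a highest value of at least 1 RPKM went into limma 3.58.1 (R 4.3.3; lmFit, eBayes with trend=TRUE), as a slope over age order with 4 residual degrees of freedom or a quadratic term with 3. Tests were two-sided, adjusted over 15272 genes by Benjamini-Hochberg, and checked on simulated data. Depth was estimated from steps between values under 0.3 RPKM, of which 67.9% to 69.5% were whole reads within a tolerance of 0.05, and reads per gene from the longest reference transcript. Because that share is partial, no count model was fitted. Ratio intervals, and the counts of genes with an interval above or below 1, come from the same estimated reads and are therefore approximate. The intervals are exact binomial at 95% and take in counting error but not PCR duplication. All 40 members were named, and of each comparison list the genes that did not fall (up to 8, otherwise the 3 highest slopes) and the 3 steepest falls, apart from genes that are not reported here. Pold3, Pold4, Pole3 and Pole4 were named after their values were seen. So were the overlapping genes Gse1, Smyd4, Ap4m1, Eif4a2, Ubxn6, Klhdc1, Aebp1, Tmem258, Zswim9 and Afmid. Promoter windows and gene neighbours came from RefSeq (GRCm38.p6). The 14 alternatives covered the pseudocount, the filter, rescaling, the age scale, the title form and left-out libraries.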

Additional observations from a re-analysis of the deposited data

How the results depend on the processing

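No paired analysis was possible because each age has 1 library. The number of replication members that fell was 36 to 38 in every alternative that tested all 40, apart from P3, P7 and P14 alone (28, an alternative chosen after seeing the data), and was 30 of 32 with a filter of 5 RPKM. Leaving out 1 library at a time gave 36 to 38 members that fell, and 2953 to 4247 falling and 1538 to 2179 rising genes of all tested, lowest without P14. With the common total, 1 member rose, 2666 of all tested genes fell, 3 housekeeping genes fell and 5 members were lower at P3 than at P1. With P3, P7 and P14 alone, 2027 of all tested genes fell and 1271 rose, the median slope of the members was -0.76, and 11 repair and 2 housekeeping genes fell. The filter of 5 RPKM gave 1403 rising genes, a median slope of -0.55 and 10 falling repair genes, from fewer genes tested. A pseudocount of 0.1 gave a median slope of -0.69, with 9 members lower at P14 than at P7 and 1 higher at P28 than at P14. Age in log2 days gave a median slope of -1.52 per log2 unit of days and 3 falling housekeeping genes. Median-of-ratios rescaling gave 3 falling housekeeping genes and 1 member higher at P14 than at P7, and leaving out single libraries gave 3 to 5 falling housekeeping genes. Over members and alternatives, 537 calls were as first given, 4 were gained and 11 were lost, 9 of these with P3, P7 and P14 alone (Gins4, Cdc6, Mcm10, Prim2, Pole2, Rfc1, Rfc2, Rpa3 and Chaf1a). The cause of these changes was not tested. Depth limits the lowest values: Chaf1b, Gins1 and Pole2 rested on under 5 reads at P14.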
